A study of Mus musculus with 17 samples.

Results

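The genes described here encode the proteasome, the large protease that degrades ubiquitin-tagged proteins in the cytoplasm and nucleus. They were chosen by symbol: every gene listed in at least 1 library whose symbol starts with Psma, Psmb, Psmc, Psmd, Psme, Psmf or Psmg followed by a number was taken, apart from Psmb8, Psmb9 and Psmb10, which encode the catalytic subunits of the immunoproteasome. This gave 46 of the 18836 genes listed, and all 46 were listed in each of the 17 libraries. By textbook role they fell into 7 outer-ring (alpha) and 7 inner-ring (beta) subunits of the 20S core, 9 subunits of the 19S base, 8 of the 19S lid, 4 activators, 1 inhibitor and 7 assembly chaperones. The remaining 3 were Psmb11, which encodes a core subunit of the thymus, Psmc3ip, whose symbol matches although its product is no proteasome subunit, and Psme2b, a close copy of Psme2 that was left unclassified.

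In the proteasome, the barrel-shaped 20S core holds the peptidase sites on its inner beta rings, and the outer alpha rings gate the entry. The 19S particle caps the core: its base unfolds substrates with a ring of ATPases, and its lid holds the subunit that removes ubiquitin before degradation. Because each standard subunit is present in equal number in the finished particle, cells usually make the subunits in a coordinated way, partly through the transcription factor NRF1 (gene Nfe2l1), which raises many subunit genes together.

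The data were RNA-seq profiles of mouse neural retinal progenitor cells (mNRPCs) of the strain C57BL/6, which the study isolated from the retinas of adult animals. Cells were kept in basal medium (BM), or in BM with basic fibroblast growth factor (B), with CHIR99021 (C), an inhibitor of the kinase GSK-3 that activates Wnt signalling, or with both (BC), and each treatment gave 1 library on days 1, 3, 5 and 7. A further library was labelled day 0 with no treatment, which the study describes both as control cells in BM and as cells before treatment. No condition had a replicate, so the tests below drew on the 16 libraries of days 1 to 7 together, comparing the 8 with bFGF (B and BC) with the 8 without (BM and C), and their p-values measure the spread between these libraries only. Total expected counts ran from 17571973 to 19428744 per library.

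As a check of the label, the progenitor markers Pax6, Six3, Nes, Sox2, Rax, Lhx2 and Hes1 summed to 109 FPKM on day 0, with Rax not listed there. The same 7 genes summed to between 149 and 404 FPKM in the libraries without bFGF and to between 96.1 and 207 FPKM in those with it. Markers of pericytes and fibroblasts (Col1a1, Pdgfrb, Rgs5 and Dcn) summed to 4.11 FPKM on day 0, to between 14.8 and 158 FPKM without bFGF and to between 6.11 and 34.4 FPKM with bFGF. These markers therefore moved with bFGF and with days in culture, and their part in the results below was not tested. Photoreceptor, endothelial and microglial marker lists each summed to at most 2.48 FPKM in every library. In bulk samples such as these, fewer cells of a type and less RNA per cell cannot be told apart.

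On day 0 the subunit genes were among the well-expressed genes, and their levels lay close to each other. FPKM, which counts reads per length of transcript and per library size, ran from 76.9 (Psmd11) to 347 (Psmb4) across the 31 genes of the 20S core and 19S particle, a range of 4.50-fold. The median level was 186 FPKM for the 14 core genes and 123 FPKM for the 17 genes of the 19S particle. Within the core, Psmb4 stood highest, and the catalytic subunits Psmb5, Psmb6 and Psmb7 stood at 208, 155 and 252 FPKM. The lid gene Psmd8 (212 FPKM) and the base gene Psmd4, which encodes a ubiquitin receptor (189 FPKM), were the highest of the 19S particle. The assembly chaperones, which help the rings form and then leave, ran far lower, from 16.1 FPKM (Psmd9) to 49.7 FPKM (Psmg2), and the thymus subunit gene Psmb11 was at 0.11 FPKM. Together the 31 genes took 0.661% of all counts on day 0.

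Nearly all of these genes stood lower in culture than on day 0, in every medium. On day 1 the median difference of the 31 subunit genes from day 0, in log2(FPKM + 1), was -0.37 for BM, -0.37 for C, -0.34 for B and -0.28 for BC, and 30 or 31 of the 31 genes were below their day 0 level in each library. For day 3 the medians were -1.18, -1.18, -0.99 and -1.12 in the same order. For day 7 they were -0.89, -0.86, -0.83 and -0.93. The median over 11258 expressed genes lay between -0.33 and 0.19 in these 16 libraries, so the lower level was not shared by the typical gene.

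A difference of at least 1 on that scale, a halving for a well-expressed gene, was reached by 22 of the 31 genes in BM on day 3 and by 15 of 31 in B on day 3, where 15.3% and 12.4% of all expressed genes were as much lower. On day 1 it was reached by 0 of the 31 genes in BM and in B, against 1.78% and 0.622% of all genes. By day 7 it was reached by 9 of 31 genes in BM and by 12 of 31 in B, against 13% and 23.2%. Day 0 was a single library, so these differences carry no test. The level of the 20S and 19S genes therefore stood lowest against day 0 on day 3 in BM, C and B, and on day 3 and day 5 alike in BC, and in all 4 media the median of day 7 lay above that of day 3.

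**Figure D1:**
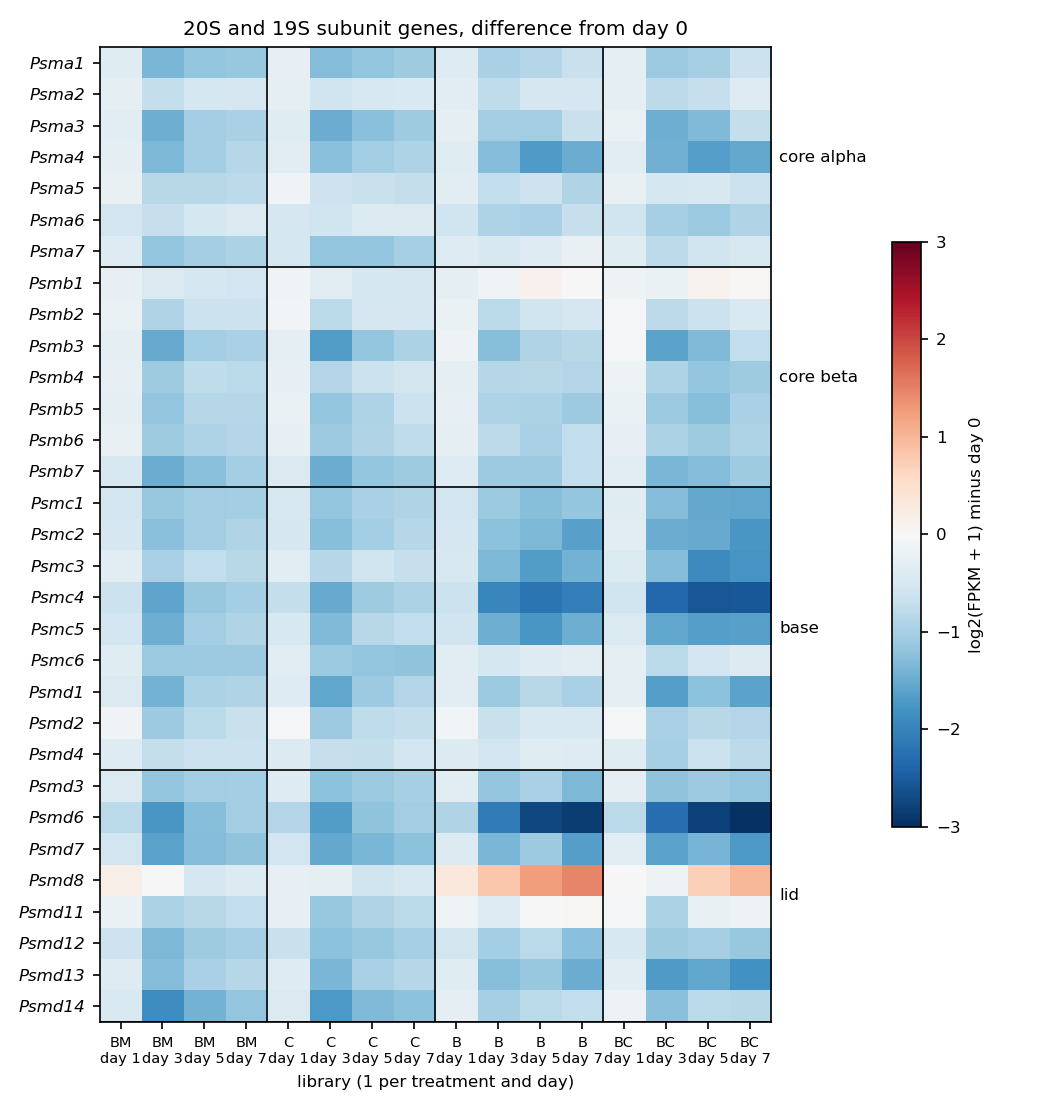
Difference in log2(FPKM + 1) from day 0 for the 31 genes of the 20S core and 19S particle (rows, by class) in the 16 cultured libraries (columns, by treatment and day); blue is lower and red is higher than day 0. Nearly every cell is blue, palest on day 1; on days 5 and 7 with bFGF Psmd8 is red and Psmd6 and Psmc4 are dark blue.

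The change over time without bFGF could be tested in the 4 libraries of BM and C on days 1 and 7. edgeR's quasi-likelihood test with Benjamini-Hochberg adjustment over 11272 genes was used here and below, with 45 of the 46 members tested (Psmb11 was too low) and an adjusted p of 0.05 as the threshold. From day 1 to day 7, 36 of the 45 genes fell and 1 rose, the inhibitor gene Psmf1, while 31.5% of all genes tested fell and 32.3% rose. Those that fell were 6 of 7 alpha genes, 7 of 7 beta genes, 7 of 9 base genes, 8 of 8 lid genes, 5 of 7 assembly chaperones and 2 of 4 activators, with Psmc3ip as the last. The median log2 fold change was -0.62 in the alpha genes, -0.53 in the beta genes, -0.46 in the base, -0.52 in the lid and -0.52 in the chaperones, against 0.02 over all genes. Among the 31 subunit genes the values stayed within a narrow band, from -0.83 (Psmc6) to 0.07 (Psma6). With libraries scaled by their totals alone, 34 genes fell, 2 rose, and 30.2% of all genes fell.

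With bFGF, members moved in both directions over the same span of days, as genes at large did. Between days 1 and 7 in B and BC, 21 of the 45 genes fell and 10 rose, while 39.5% of all genes fell and 35.8% rose. The median over the 14 core genes was -0.03 and that over the 17 genes of the 19S particle was -0.55, with a range in the latter from -1.69 (Psmd6) to 1.52 (Psmd8). The count of genes that rose depended on the scaling of the libraries: with library totals alone only Psmb1 and Psmd8 rose, and 31 genes fell, beside 22.1% and 56.1% of all genes.

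The comparison of the 8 libraries with bFGF and the 8 without, over all 4 days, addressed what the growth factor does to these genes. In it 25 of the 45 genes were higher and 5 lower with bFGF, against 34.6% and 33.9% of all genes. All 7 beta genes and 5 of 7 alpha genes were higher and none of these 14 was lower. In the base 4 of 9 were higher and 2 lower, and in the lid 6 of 8 were higher and 1 lower. Of the 4 activators 1 was lower and none was higher. The median log2 fold change was 0.33 in the alpha genes, 0.32 in the beta genes, 0.09 in the base, 0.33 in the lid and -0.12 in the activators.

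How many of these genes counted as higher turned on the scaling. TMM, the scaling used, gave the B and BC libraries of days 5 and 7 factors from 0.754 to 0.816 and the 8 libraries without bFGF factors from 1.08 to 1.13. With library totals alone, the median of all genes moved from 0.00 to -0.29, and 7 of the 45 genes were higher and 15 lower, beside 19.9% and 50.6% of all genes. A set of 12 genes was called in the same direction by edgeR with TMM, with RLE and with library totals, by DESeq2 and by limma on log2(FPKM + 1). Higher in all of these were Psma1, Psma7, Psmb1, Psmc6, Psmd8, Psmd11 and Psmd14, and lower in all were Psmc3, Psmc4, Psmd6, Psme3 and Psmf1. The share of all genes called in the same direction by all of these fits was not counted, so the size of this set cannot be judged. The other members were not called in the same direction by all of these fits, and some, such as Psmb4, Psmb5 and Psmd3, changed sign with library totals.

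**Figure D2:**
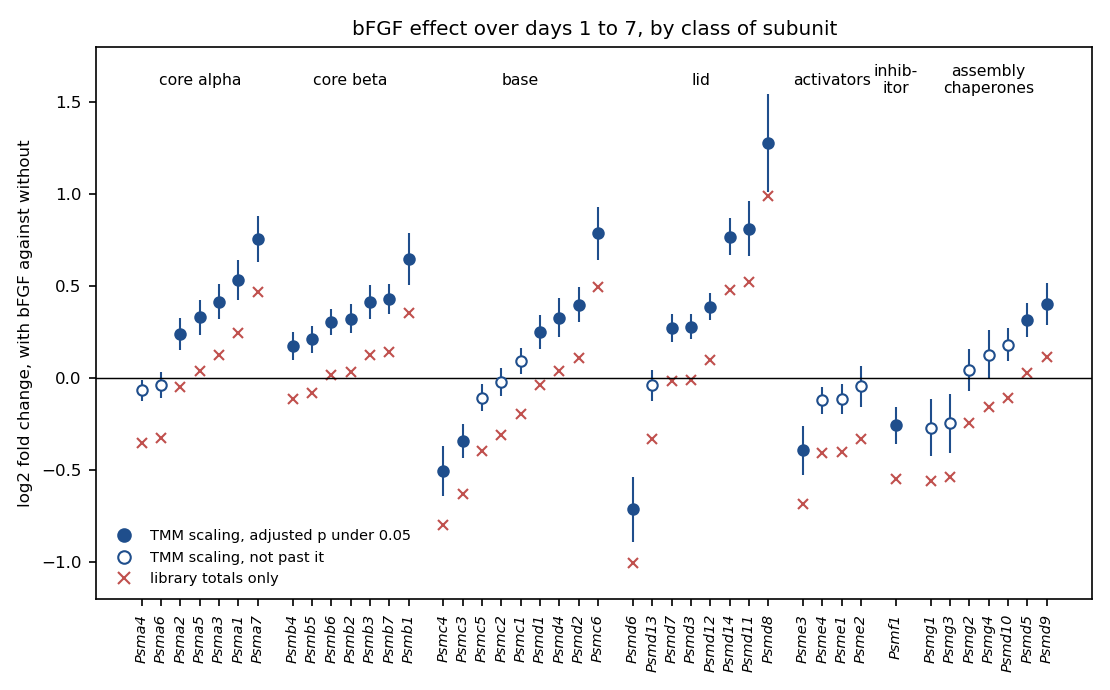
Log2 fold change with bFGF against without over days 1 to 7 (vertical axis) for each tested member, by class; circles are TMM-scaled estimates with 1 standard error (8 libraries against 8), filled where the adjusted p was under 0.05, and crosses are the estimates with library totals alone. The crosses lie about 0.29 lower throughout, and the base and lid spread more widely than both core classes.

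In the outer ring, Psma7 showed the largest difference and Psma4 the lowest. On days 1 and 3, FPKM of Psma7 was 162, 148, 163 and 166 in BM, C, B and BC on day 1 and 93.8, 93.3, 152 and 124 in the same order on day 3. On day 5 it was 105, 95.1, 161 and 139.5, and on day 7 109, 107, 183 and 152. Psma7 was thus alike in the 4 media on day 1, and from day 3 both libraries with bFGF lay above both without. Over the 4 days its log2 fold change was 0.76 ± 0.12 (SE, adjusted p = 0.000377 by edgeR). Psma4 stood at 119, 117, 113 and 114 FPKM in BM, C, B and BC on day 1, at 56.7, 59.8, 58.0 and 52.4 on day 3, at 69.6, 70.3, 44.2 and 45.5 on day 5 and at 79.0, 76.2, 50.9 and 49.4 on day 7. On days 5 and 7 its libraries with bFGF lay below those without in FPKM, yet its TMM-scaled log2 fold change was -0.06 ± 0.06 (adjusted p = 0.33 by edgeR), that is, close to the typical gene. Reads of Psma4 were partly shared with other genes, since its expected count was not a whole number in any library, and the same held for Psma3. Of the remaining alpha genes Psma1, Psma2, Psma3 and Psma5 were higher, from 0.24 (Psma2) to 0.53 (Psma1), and Psma6 was at -0.04.

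The 3 catalytic subunits of the inner ring, which carry the caspase-like (Psmb6), trypsin-like (Psmb7) and chymotrypsin-like (Psmb5) sites, differed less between media than between days. FPKM of Psmb5 was 169, 181, 173 and 180.3 in BM, C, B and BC on day 1, 90.6, 91.1, 108 and 95.0 on day 3, 115, 108, 107 and 85.1 on day 5 and 114, 133, 97.2 and 106 on day 7. Psmb6 was at 132, 131, 128 and 129.9 in that order on day 1, 73.8, 72.0, 89.99 and 80.2 on day 3, 81.3, 82.9, 78.5 and 73.7 on day 5 and 83.9, 90.8, 91.8 and 80.7 on day 7. Psmb7 was at 179.6, 187, 191 and 198 on day 1, 88.8, 88.8, 118 and 97.4 on day 3, 105, 111, 117 and 101 on day 5 and 124, 119, 149.8 and 119 on day 7. For all 3 genes the drop from day 1 to day 3 was larger than any gap between the media of a day. Their log2 fold changes with bFGF were 0.21 ± 0.07 (Psmb5, adjusted p = 0.0196 by edgeR), 0.31 ± 0.07 (Psmb6, adjusted p = 0.0025) and 0.43 ± 0.08 (Psmb7, adjusted p = 0.000813). With library totals they came to -0.08, 0.02 and 0.14, and none of the 3 passed the threshold. Psmb5 also lost its call without BM or B of day 3, C of day 5 or BM of day 7.

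Psmb1 and Psmb4, which are structural subunits of the same ring, were its extremes. Psmb1 stood at 136, 146, 134 and 144 FPKM in BM, C, B and BC on day 1, 118, 127, 147 and 139.9 on day 3, 111, 112, 177 and 174 on day 5 and 108, 112, 159 and 164 on day 7, beside 160.5 on day 0. In B and BC it thus stood near its day 0 level on days 5 and 7, and in BM and C it stayed below it. Its log2 fold change with bFGF was 0.65 ± 0.14 (adjusted p = 0.00169 by edgeR). Psmb4 stood at 289.9, 294, 286 and 309.7 FPKM on day 1, 164, 187, 192 and 181 on day 3, 205, 220.2, 193 and 155 on day 5 and 197, 236, 188 and 164 on day 7 in the same order of media. Its log2 fold change, 0.18 ± 0.07, passed the threshold narrowly (adjusted p = 0.0493 by edgeR) and turned to -0.11 with library totals. It was lost when any library other than BC of day 5 was left out. Psmb2 and Psmb3 were higher by 0.32 and 0.42.

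The genes of the 19S particle went apart with bFGF, and both the base and the lid held genes that moved in opposite directions. In the base, the ATPase genes Psmc6 and Psmc4 marked the extremes. FPKM of Psmc6 was 101, 103, 104 and 109 in BM, C, B and BC on day 1, 60.3, 59.6, 89.96 and 74.6 on day 3, 60.5, 57.2, 99.5 and 88.3 on day 5 and 60.9, 56.0, 104 and 97.7 on day 7. FPKM of Psmc4 was 112, 108, 113 and 117 on day 1, 58.1, 61.5, 44.7 and 33.8 on day 3, 80.3, 83.4, 37.7 and 29.0 on day 5 and 86.3, 90.5, 41.0 and 29.7 on day 7 in the same order. From day 3 onward each library with bFGF was above both libraries without it for Psmc6 and below both for Psmc4. The log2 fold changes were 0.79 ± 0.14 (Psmc6, adjusted p = 0.00066 by edgeR) and -0.51 ± 0.14 (Psmc4, adjusted p = 0.00569), both in ATPases that sit in one ring.

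The other 4 ATPase genes followed Psmc4 rather than Psmc6 in FPKM. On days 5 and 7, Psmc1, Psmc2, Psmc3, Psmc4 and Psmc5 were lower in all 4 libraries with bFGF than in all 4 without, and Psmc6 was higher in all 4. Such groups without overlap were common: 53.5% of all expressed genes lay lower in this way and 18.4% higher, and among the 46 members 18 lay lower and 8 higher. After TMM scaling Psmc3, whose exons overlap those of Slc39a13 on the opposite strand, was lower (-0.34 ± 0.09, adjusted p = 0.00572 by edgeR), and Psmc1 (0.09), Psmc2 (-0.02) and Psmc5 (-0.11) did not pass the threshold. The scaffold genes Psmd1 and Psmd2 and the ubiquitin receptor gene Psmd4 were higher by 0.25, 0.40 and 0.33.

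In the lid, Psmd8 and Psmd6 went furthest apart of all members. FPKM of Psmd8 was 241, 179, 264 and 214 in BM, C, B and BC on day 1, 213, 172, 380.1 and 190.4 on day 3, 149, 140.1, 504.3 and 350.2 on day 5 and 158, 151, 591 and 427 on day 7. On day 7 the libraries with bFGF stood above the 212 FPKM of day 0 and those without stood below it. Psmd6 stood at 56.6, 54.0, 53.4 and 56.7 FPKM on day 1 in the same order, 29.4, 30.7, 22.6 and 19.8 on day 3, 41.0, 43.0, 14.4 and 13.5 on day 5 and 48.3, 48.0, 13.2 and 11.9 on day 7, beside 101 on day 0. In BM and C it rose again after day 3, and in B and BC it fell further up to day 7. The log2 fold changes over the 4 days were 1.28 ± 0.27 (Psmd8, adjusted p = 0.00132 by edgeR) and -0.71 ± 0.17 (Psmd6, adjusted p = 0.00341), and on day 7 alone 2.24 ± 0.19 (adjusted p = 3.17e-07) and -1.39 ± 0.10 (adjusted p = 7.45e-08). The expected counts of Psmd8 and Psmd6 were whole numbers in all 17 libraries.

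The ubiquitin-removing subunit gene Psmd14 was higher with bFGF by 0.77 ± 0.10 (adjusted p = 0.000121 by edgeR) and the scaffold-like gene Psmd11 by 0.81 ± 0.15 (adjusted p = 0.000699). Reads of Psmd11 were partly shared with other genes, since its expected count was a whole number in only 1 of the 17 libraries. Psmd14 stood at 42.8, 41.3, 58.7 and 54.2 FPKM in BM, C, B and BC on day 7 and Psmd11 at 45.5, 43.3, 78.5 and 68.2. Both were higher in plain FPKM in 8 of 8 pairs of libraries that differed in bFGF alone, as were Psmd8, Psmc6 and Psma7. Among the 46 members these 5 were higher in all pairs, and 4 were lower in all: Psma6, Psmc3, Psme1 and Psme4. The share of all genes was not counted. The median of all expressed genes was below 0 in each pair, from -0.03 to -0.50 in log2(FPKM + 1). Psmd3, Psmd7 and Psmd12 were higher by 0.28, 0.27 and 0.39, and Psmd13 was at -0.04.

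**Figure D3:**
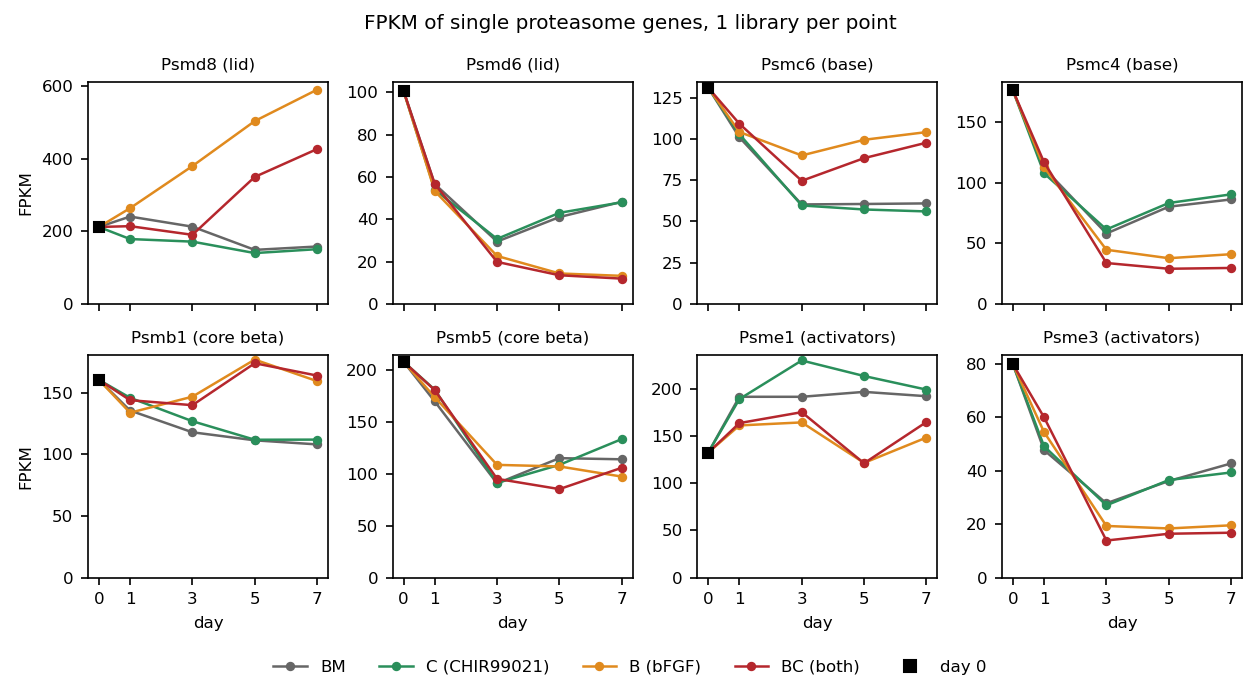
FPKM (vertical axis, from 0) by day for 8 members in the 4 media, 1 library per point, with day 0 as a black square. At day 7 Psmd8 stands at 591 (B) and 427 (BC) while Psmd6 stands at 13.2 and 11.9; Psmc6 and Psmc4 part in the same way, Psmb5 does not, and Psme1 lies above day 0 in most libraries.

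The sequences before the starts of these 4 genes are shown because the members of each pair share a subcomplex and yet parted with bFGF. Each runs 5′ to 3′ on the strand of the gene, from 250 bases before the start to the edge of the nearest annotated exon, as given by RefSeq for GRCm38.p6. The Psmd6 sequence is kept to the end of its marked motif, whose last bases lie within the exon. Capitals mark a match to TGACNNNGC on either strand (the core of the antioxidant response element, which NRF1 and its relatives bind) or to CCGGAAGT on either strand (bound by ETS factors).
Psmd8, chr7:29180702-29180923, minus strand: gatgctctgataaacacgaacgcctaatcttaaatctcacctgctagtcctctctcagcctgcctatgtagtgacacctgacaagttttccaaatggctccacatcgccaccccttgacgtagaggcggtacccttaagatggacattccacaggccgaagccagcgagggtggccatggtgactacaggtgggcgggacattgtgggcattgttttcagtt
Psmd6, chr14:14120983-14121195, minus strand: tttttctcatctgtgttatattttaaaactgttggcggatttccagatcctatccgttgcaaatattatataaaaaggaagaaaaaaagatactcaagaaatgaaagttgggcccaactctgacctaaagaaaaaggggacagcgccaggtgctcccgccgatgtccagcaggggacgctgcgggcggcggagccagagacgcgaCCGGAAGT
Psmc6, chr14:45329574-45329787, plus strand: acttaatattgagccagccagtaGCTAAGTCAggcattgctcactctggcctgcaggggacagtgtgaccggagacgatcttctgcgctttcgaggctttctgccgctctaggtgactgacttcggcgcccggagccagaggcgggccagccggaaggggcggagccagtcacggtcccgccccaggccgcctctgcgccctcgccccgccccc
Psmc4, chr7:28050102-28050342, minus strand: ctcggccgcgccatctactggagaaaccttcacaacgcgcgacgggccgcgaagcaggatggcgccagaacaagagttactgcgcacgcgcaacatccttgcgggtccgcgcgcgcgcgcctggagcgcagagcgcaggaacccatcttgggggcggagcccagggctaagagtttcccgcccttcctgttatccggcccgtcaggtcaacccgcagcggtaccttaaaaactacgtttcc

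Of the 46 members, 39 had an entry in the promoter table. The motifs below were looked for on both strands in the 250 bases before the start. These bases were not cut at exons here, and in many members they hold annotated exon, 227 bases in Psmc2 and all 250 in Psma4. A match may therefore lie within an exon. TGACNNNGC was held by 5 of the 39 (12.8%) and by 10.1% of 27025 promoters of that length, and the 5 were Psmb5, Psmb6, Psmc6, Psmd9 and Psmd12. All 5 were among the genes higher with bFGF, 20 of which had an entry, and none of the 4 lower genes with an entry held it. With only 4 lower genes this split cannot tell the directions apart, and it was not made for all genes. The calls of higher and lower are those after TMM scaling: with library totals only Psmc6 of the 5 was called higher. Psmb5 (-0.08), Psmb6 (0.02), Psmd9 (0.11) and Psmd12 (0.10) did not pass the threshold. CCGGAAGT was held by 5 of 39 (12.8%) and by 2.93% of all promoters, and the 5 were Psmc1, Psmc2, Psmd6, Psmd12 and Psme4. Of the 20 higher genes 1 held it, and of the 4 lower genes 1. CCAAT, bound by NF-Y, was held by 14 of 39 (35.9%) and 34.5% of all, among them 8 of the 20 higher and 1 of the 4 lower genes. GCATGCGC, the site of nuclear respiratory factor 1, was held by 2 of 39 (5.13%) and 2.32% of all, and AAGATGGCG, bound by YY1, by 0 of 39 and 0.607% of all. These are matches of letters and do not show binding.

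The parting of the 19S genes could also be read within each library, where no scaling between libraries enters. On day 0 the FPKM of Psmd8 was 2.11 times that of Psmd6. For day 7 the ratios of BM, C, B and BC were 3.28, 3.14, 44.6 and 35.8, after 3.63, 3.25, 35.1 and 25.9 on day 5. On day 1 it lay between 3.31 and 4.95 in the 4 media. The ratio of Psmc6 to Psmc4 behaved alike, at 0.705, 0.619, 2.54 and 3.29 on day 7 beside 0.743 on day 0. In the core the ratio of Psma7 to Psma4 came to 1.38, 1.40, 3.59 and 3.07 on day 7 and that of Psmb1 to Psmb4 to 0.548, 0.475, 0.847 and 0.997. Because each pair was picked as the extremes of the same data, these ratios are a description.

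Over whole subcomplexes, the SD of log2 FPKM across the 17 genes of the 19S particle was 0.43 on day 0 and between 0.49 and 0.55 in the 4 libraries of day 1. For BM, C, B and BC of day 7 the SD was 0.55, 0.58, 1.16 and 1.10. Across the 14 core genes it was 0.34 on day 0, and 0.33, 0.39, 0.48 and 0.45 on day 7 in that order. The 2 rings of the core differed: on day 7 the SD was 0.26, 0.30, 0.55 and 0.54 across the 7 alpha genes. It was 0.39, 0.44, 0.40 and 0.37 across the 7 beta genes and 0.42, 0.45, 0.70 and 0.74 across the 9 base genes. A wider spread with bFGF was thus seen in the alpha ring as well as in the 19S particle. The spread over all genes was not computed, so whether the widening was particular to these genes is not known. Without Psmd8 and Psmd6 the SD of the remaining 15 genes of the 19S particle on day 7 was 0.47, 0.52, 0.64 and 0.63, a smaller gap between the media than with both genes in. The median FPKM of the core genes was 1.51 times that of the 19S genes on day 0, and 1.81, 1.84, 1.97 and 2.62 times on day 7 in BM, C, B and BC.

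**Figure D4:**
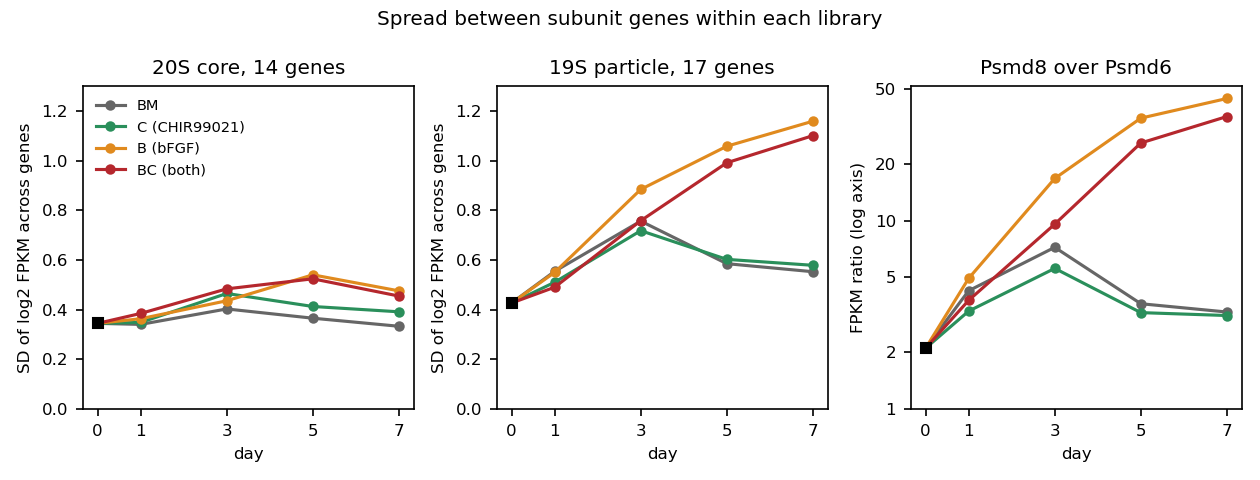
Left and middle, the SD of log2 FPKM across the 14 core genes and the 17 genes of the 19S particle in each library, by day and medium; right, the FPKM ratio of Psmd8 to Psmd6 on a log axis. The 19S spread of day 7 reaches 1.16 for B and 1.10 for BC beside 0.55 for BM and 0.58 for C, and the ratio reaches 44.6 and 35.8.

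The activators replace or accompany the 19S particle at the ends of the core. Psme1 and Psme2 encode the subunits of one ring, which interferon induces. FPKM of Psme1 was 191, 189, 161 and 164 in BM, C, B and BC on day 1, 191, 229.8, 164 and 175 on day 3, 197, 213, 121 and 121 on day 5 and 192, 199, 148 and 165 on day 7, against 132 on day 0. Psme2 stood at 230.4, 208, 176 and 170.3 on day 1, 144, 168, 126 and 139 on day 3, 182, 192, 123 and 103 on day 5 and 172, 179, 181 and 159.9 on day 7 in the same order, against 164 on day 0. Unlike the standard subunits, Psme1 lay above day 0 in every library but B and BC of day 5. The log2 fold changes with bFGF were -0.11 ± 0.08 (Psme1, adjusted p = 0.23 by edgeR) and -0.04 ± 0.11 (Psme2, adjusted p = 0.73). On day 7 alone both were higher after TMM scaling, by 0.22 and 0.50. In plain FPKM, Psme1 was lower in 8 of 8 pairs, in each of which the median of all expressed genes was below 0 as well. With library totals both genes passed the threshold (-0.40 and -0.33).

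Psme3, whose product forms the activator ring of the nucleus, went the other way from Psme1 after day 0. It stood at 47.7, 49.1, 54.4 and 59.9 FPKM in BM, C, B and BC on day 1, 27.8, 27.1, 19.3 and 13.9 on day 3, 36.1, 36.5, 18.4 and 16.4 on day 5 and 42.7, 39.3, 19.6 and 16.8 on day 7, against 79.8 on day 0. It was lower with bFGF, at a log2 fold change of -0.39 ± 0.13 (adjusted p = 0.0199 by edgeR). The ratio of Psme1 to Psme3 went from 1.66 on day 0 to 4.50, 5.06, 7.57 and 9.80 for BM, C, B and BC of day 7. Psme4, the large single-chain activator, stood at 41.7, 47.4, 34.5 and 35.3 FPKM on day 1, 28.5, 28.4, 26.2 and 28.1 on day 3, 25.8, 24.3, 17.8 and 20.1 on day 5 and 24.9, 24.8, 15.9 and 12.6 on day 7. Its log2 fold change with bFGF was -0.12 ± 0.07 (adjusted p = 0.16 by edgeR), and between days 1 and 7 it fell by 0.87 both without and with bFGF. Psmf1, the inhibitor gene, stood at 8.51, 9.16, 8.48 and 9.29 FPKM on day 1, 11.3, 11.1, 6.94 and 7.35 on day 3, 11.3, 10.6, 6.49 and 5.42 on day 5 and 11.8, 11.2, 8.22 and 6.78 on day 7, and was lower with bFGF, at -0.26 ± 0.10 (adjusted p = 0.0376 by edgeR). That call was lost when any library of day 3 or day 5, or BC of day 7, was left out.

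Among the assembly chaperones Psmd9, which helps the base form, and Psmd5 were higher with bFGF, by 0.40 ± 0.12 (adjusted p = 0.00814 by edgeR) and 0.32. FPKM of Psmd9 was 13.1, 14.2, 12.3 and 14.2 in BM, C, B and BC on day 1, 9.66, 9.33, 10.2 and 9.99 on day 3, 10.1, 11.8, 11.8 and 10.5 on day 5 and 10.1, 12.1, 14.8 and 14 on day 7. Its reads may include those of a long noncoding RNA that the annotation places over it on the opposite strand. The expected count of Psmd9 was not a whole number in any library. Psmg1, a chaperone of the alpha ring, stood at 16.7, 20.2, 17.9 and 22.8 FPKM on day 1, 9.74, 9.94, 8.69 and 11.48 on day 3, 9.83, 13.9, 5.22 and 5.35 on day 5 and 12.2, 13.7, 5.45 and 5.12 on day 7. It was at -0.27 ± 0.15 over the 4 days (adjusted p = 0.13 by edgeR) and at -0.74 ± 0.15 on day 7 alone (adjusted p = 0.000725). Psmd10, Psmg2, Psmg3 and Psmg4 lay between -0.25 and 0.18 and did not pass the threshold over the 4 days.

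Of the matched genes that are no standard subunit, Psmc3ip stood at 16.1 FPKM on day 0, at 9.43, 10.3, 12.4 and 10.96 on day 1, 2.62, 1.57, 2.77 and 2.21 on day 3, 3.41, 2.10, 2.82 and 2.43 on day 5 and 3.25, 3.53, 6.95 and 4.77 on day 7. Its product acts in recombination, its exons overlap those of Mlx on the opposite strand, and its log2 fold change with bFGF was 0.59 ± 0.18 (adjusted p = 0.0098 by edgeR). Psme2b stood between 2.92 and 11.3 FPKM in the 17 libraries and was at -0.20 ± 0.22 with bFGF (adjusted p = 0.43 by edgeR). Neither Psme2 nor Psme2b had a whole expected count in any library, so their reads were partly shared and both values are uncertain. Psmb11 stayed between 0.08 and 0.70 FPKM.

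By day, the difference between libraries with and without bFGF grew. On day 1 only the chaperone gene Psmg2 was higher (0.43 ± 0.09 on the log2 scale) and none of the 45 was lower, against 6.21% and 4.46% of all genes, and 8 of the 45 had an unadjusted p under 0.05. On day 3, 13 genes were higher and 6 lower (25.4% and 25.0% of all genes). On day 5 the counts were 22 and 12 (37.2% and 38.6%), and on day 7 they were 25 and 9 (38.8% and 39.6%). Without BM of day 3 the count of higher genes on day 3 was 6 and without B of day 3 it was 8, and without C or BC of day 3 the count of lower genes was 3. The single gene of day 1 was lost without any 1 of the 4 libraries of that day, and without B or BC of day 3 the count was 3. Without BC of day 7 the lower genes of day 7 numbered 5. With library totals, day 5 had 8 higher and 20 lower, beside 21.3% and 56.7% of all genes. In that scaling day 7 had 10 higher and 23 lower, beside 21.9% and 59.0%. On day 7 the log2 fold changes of the 19S genes spread from -1.39 to 2.24 (SD 0.86). Those of the core genes spread from -0.10 to 1.17 (SD 0.36), whereas on day 1 the SD was 0.09 and 0.08. The SD over all genes was not computed, and the shares of all genes called also rose between these days, as given above.

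Whether the effect of bFGF differed between day 7 and day 1 was tested as an interaction. It was larger on day 7 for 22 of the 45 genes and smaller, that is, more negative, for 6, against 31.3% and 34.1% of all genes. Among the core genes 10 of 14 were past the threshold, all upward. Among the 19S genes 6 were upward and 3 downward, the latter Psmc2, Psmc4 and Psmd6. With library totals 7 were upward and 18 downward, beside 17.7% and 51.3% of all genes.

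CHIR99021 was not seen to change any of these genes. Over the 4 days none of the 45 genes passed the threshold with edgeR or with DESeq2, against 0.0532% of all genes higher and 0.284% lower, and 2 of the 45 had an unadjusted p under 0.05. The log2 fold changes ran from -0.40 to 0.34 with a median of -0.02. The most negative was Psmd8 (-0.40 ± 0.25, adjusted p = 0.69 by edgeR), which in plain FPKM was lower in 8 of 8 pairs of libraries that differed in CHIR99021 alone. The most positive was the chaperone gene Psmg4 (0.34 ± 0.13, adjusted p = 0.36 by edgeR), which was higher in 8 of 8 pairs. Among the 46 members 2 were higher and 1 was lower in all of these pairs, and the share of all genes was not counted. Whether the effect of bFGF depended on CHIR99021 was tested as well, and 0 of 45 members and 1 of 11272 genes passed. Neither of these fits let the effect of bFGF change with day. Between day 1 and day 7 that effect moved upward for 31.3% of all genes and downward for 34.1%. Such changes counted as spread in the tests of CHIR99021, so effects of CHIR99021 may have been missed and their absence is not shown. In FPKM the median over the 31 subunit genes differed between BC and B by -0.19 on day 3, -0.21 on day 5 and -0.14 on day 7 (BC minus B, in log2(FPKM + 1)), and between C and BM by at most 0.03 on any day.

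Partners of the proteasome outside the matched symbols were taken from lists of related genes. Of 9 associated factors tested, 6 were higher with bFGF and none was lower, with a median log2 fold change of 0.74, where 34.6% of all genes were higher and 33.9% lower. This count and those of the lists below are after TMM scaling, and calls in this comparison shifted with the scaling as given above. They included Pomp, the chaperone that matures the core (0.74 ± 0.15, adjusted p = 0.00135 by edgeR), and Akirin2, which carries proteasomes into the nucleus (0.94 ± 0.17, adjusted p = 0.000629). Shfm1, which encodes the smallest lid subunit, had 109.8, 109, 215 and 264 FPKM with BM, C, B and BC at day 7 and was higher by 0.80 ± 0.19 (adjusted p = 0.00304 by edgeR). Adrm1, a ubiquitin receptor of the base, was at 0.04 ± 0.09 (adjusted p = 0.68).

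Of 10 genes that supply or carry ubiquitin, 7 were higher and 1 was lower, against the same 34.6% and 33.9% of all genes. Rps27a, which encodes ubiquitin fused to a ribosomal protein, stood at 295, 339, 973 and 1387 FPKM in BM, C, B and BC on day 7. Ubqln2, a shuttle that hands substrates to the proteasome, was lower (-0.74 ± 0.24, adjusted p = 0.0167 by edgeR). Along the NRF1 route 2 of 10 genes were higher and 2 lower, beside those shares of all genes, and Nfe2l1 itself was at 0.22 ± 0.12 (adjusted p = 0.13 by edgeR). Ngly1, which removes sugars from NRF1 before it is cut, was lower, at -1.03 ± 0.21 (adjusted p = 0.00131). Of the immunoproteasome genes, Psmb9 (-0.33) and Psmb10 (-0.67) were lower and Psmb8 was at 0.01.

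The members are short genes, with a median transcript length of 1313 bases against 2818 over all genes tested. Over all genes the log2 fold change with bFGF went with length (Spearman rho -0.19 over the 4 days and -0.28 on day 7), and over the 45 members rho was -0.01 and -0.19. The part of length in the results was not tested.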

How the data were processed

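RNA of mouse retinal progenitor cells was sequenced in 17 libraries on the BGISEQ-500. The submitters' processing notes name Bowtie2, RSEM and mm10, and the study's methods name eXpress for FPKM, so the quantifier is uncertain and no versions are given in the sources used here. The deposited files hold, per gene, an expected count that the authors estimated from the aligned reads and an FPKM value that the authors computed from it, with 14820 to 15882 genes listed per library. Whether counting used strand is not given in the sources used here.

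Groups were taken from the sample labels, which give no replicate and no batch. Expected counts were rounded to whole numbers, scaled by TMM and entered into the quasi-likelihood test of edgeR 4.0.16 (R 4.3.3). The 11272 genes whose FPKM averaged 1 or more over the 16 cultured libraries were tested, and p-values were adjusted by Benjamini-Hochberg with 0.05 as threshold. An additive fit (bFGF, CHIR99021 and day) gave the comparisons over days 1 to 7, and a fit with bFGF on each day gave those by day and over time, so that departures from these models stand in for replicate spread. Differences from day 0 were taken on log2(FPKM + 1), which understates changes of low genes. Alternatives were library totals alone, RLE, DESeq2 1.42.0, limma 3.58.1 on log2(FPKM + 1) and log2(FPKM + 0.1), no filter, a minimum mean FPKM of 5, and leaving out each library. The scripts were tested on simulated data. Totals of 17571973 to 19428744 expected counts limit precision for low genes only.

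The members and the lists of related genes and markers were chosen with earlier results of these data known, and 2 genes of these lists are not reported here. Values in full were given for the extremes of each class by log2 fold change with bFGF, the catalytic subunits, the activators, the inhibitor and the matched genes that are no standard subunit; Psmd11 and Psmd14 were added after their values were seen. Promoter sequences and gene starts came from RefSeq (GRCm38.p6).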

Additional observations from a re-analysis of the deposited data

Results flagged for a closer look

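For 14 of the genes given in full, the effect of bFGF on day 7 differed from that on day 1 in a test of the interaction (edgeR's quasi-likelihood test, adjusted p under 0.05). The difference in log2 fold change was upward for Psmd8 (1.96), Psmc6 (1.18), Psmb1 (1.04), Psmc3ip (1.02), Psma7 (1.00), Psmd9 (0.88), Psme2 (0.76), Psmb7 (0.54), Psmb6 (0.47) and Psme1 (0.37). It was downward for Psmd6 (-1.47), Psmg1 (-0.96), Psme3 (-0.96) and Psmc4 (-0.94). The call of Psmc3ip was lost without C of day 1 or BM of day 7, and that of Psme1 without BM or BC of day 1, or C or BC of day 7.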

How the results depend on the processing

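The counts with bFGF depended on how libraries were scaled. With library totals alone, with limma on log2(FPKM + 1) and with limma on log2(FPKM + 0.1), in that order, members higher over days 1 to 7 numbered 7, 8 and 8 and lower 15, 15 and 15. On day 5 they were 8, 8 and 8 higher and 20, 20 and 20 lower, on day 7 10, 10 and 10 higher and 23, 21 and 21 lower. The change of the bFGF effect from day 1 to day 7 gave 7, 7 and 7 upward and 18, 17 and 17 downward, and day 7 against day 1 with bFGF gave 2, 2 and 2 higher. In the same order, the log2 fold change with bFGF was -0.11, -0.12 and -0.12 for Psmb4 and -0.078, -0.082 and -0.083 for Psmb5. The interaction was -0.32, -0.32 and -0.32 for Psmb4, -0.29, -0.29 and -0.30 for Psmb5, -0.088, -0.094 and -0.094 for Psme1 and -0.45, -0.43 and -0.46 for Psme4, which was also -0.083 with a minimum mean FPKM of 5. The cause was not tested. With library totals alone, 19.9% of all genes were higher and 50.6% lower over days 1 to 7. The shares were 21.3% and 56.7% on day 5 and 21.9% and 59.0% on day 7. For the interaction 17.7% were upward and 51.3% downward, and 22.1% rose from day 1 to day 7 with bFGF. Shares of all genes with limma are not given here.

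On day 1 limma with the pseudocount 0.1 called 0 members higher. From day 1 to day 7 without bFGF, the members that rose numbered 2 with library totals, with a minimum mean FPKM of 5 and with limma at pseudocount 1, and 0 with no filter. On the log2 scale of TMM-scaled counts, the median difference from day 0 was -0.52 on day 1 and -1.28 on day 3.

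Leaving out each library in turn gave 0 to 3 members higher and 0 to 1 lower on day 1, 6 to 14 higher and 3 to 7 lower on day 3, 5 to 10 lower on day 7 and 0 to 2 that rose from day 1 to day 7 without bFGF. The last count was 0 without BM of day 1, BM of day 7 or C of day 7. The log2 fold change of Psme2 ran from -0.13 to 0.0060, positive without BC of day 5, and the interaction of Psme4 from -0.16 to 0.16. Over days 1 to 7 the counts stayed at 21 to 25 higher and 4 to 6 lower. The labels give no replicate numbers, so no fit with a replicate block was made. Libraries were matched by day and by the other factor in the additive fit.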
